A study of Mus musculus with 8 samples.

Results

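The genes described here encode the pore and accessory subunits of voltage-gated and related ion channels, together with 4 connexins, the proteins of gap junctions. They were taken by symbol: potassium channel genes of the Kcn families, sodium channel genes (Scn), pacemaker channel genes (Hcn), calcium channel genes (Cacna, Cacna2d, Cacnb and Cacng), and Gja1, Gja5, Gjc1 and Gjb2. Of 18193 genes with a probe set of 1 symbol, 110 met this rule, and each was read on its brightest probe set, the one with the highest mean over all arrays. The rule also takes in inward rectifiers (Kcnj), tandem pore-domain channels (Kcnk), the Kcnn, Kcnt and Kcnu channels and the gamma subunits, and not all of these are gated by voltage.

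The tissue was the atrioventricular canal of the mouse heart, where the endocardial cushions that become the valves form. The 8 samples were pools of 10 microdissected canals each, and the sources used here do not give the stage of the embryos. The 4 control pools were Gata4flox/flox, and the 4 mutant pools were Gata4flox/flox with the Cre transgene T2Cre (Gata4T2del). T2Cre is driven by the Tie2 promoter and removes Gata4 from endothelial cells and from cushion mesenchyme, which descends from them, while the myocardium keeps the gene. Both groups carried floxed alleles on a mixed C57BL6/129 background, and the labels give Cre for the mutants alone, so the effects of Cre itself and of losing Gata4 cannot be told apart. Nothing in the labels says whether the pools of a group came from separate litters, so the p values measure the spread between these pools. In whole canals, fewer cells of a type and less RNA per cell cannot be told apart.

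Ion channels set how a heart cell depolarises, how long it stays depolarised and how much calcium enters at each beat. Sodium and L-type calcium channels carry the inward current of the upstroke and plateau, and potassium channels carry the outward current that ends the beat or holds the cell at rest. Accessory subunits bring the pores to the membrane and tune their gating. Connexins pass the current from cell to cell. The muscle of the atrioventricular canal conducts slowly, and it is known for low amounts of the connexins of fast chamber muscle.

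The arrays differed in background, and a gene was called read on an array by comparison with that background. The limit for calling a probe set above background was the 90th percentile, on the same array, of 27 bacterial control probe sets whose RNA is not normally in the sample. It lay at 316 and 270 signal units on controls 2 and 3, and between 21.4 and 97.5 on the remaining 6 arrays. In the fit, controls 2 and 3 had array weights of 0.302 and 0.35, against 0.867 to 2.80 for the others. The 3 prime to 5 prime log2 ratio of Actb, a measure of RNA integrity, ran from 1.14 to 1.40 in the controls and from 1.31 to 1.51 in the mutants, and its part in the results below was not tested. Gata4 itself read 11.15, 11.07, 11.42 and 11.38 in controls 1 to 4, against 11.10, 11.28, 11.18 and 10.93 in mutants 1 to 4, on the log2 scale (log2 change -0.15, SE 0.11, adjusted p = 0.585). The groups overlapped, and where the probe set lies relative to the deleted part is not given, so this value does not check the deletion.

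The markers of the labelled tissue were present, and so were those of blood. All 14 cardiomyocyte markers and all 10 cushion mesenchyme markers were above background on all 8 arrays, as were 6 of 10 endothelial and 7 of 9 epicardial markers. None of 8 macrophage markers and none of 9 measured markers of neurons and neural crest was above background on all 8 arrays. Of 9 measured erythroid markers, 6 were, among them the embryonic globin Hbb-y with deposited signals of 16064 to 21618.

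Most of the channel genes were not detected throughout. Of 110 genes, 19 were above background on all 8 arrays (17.3%), 79 on 1 to 7 arrays and 12 on no array. Over all 18193 genes the share above background on all 8 arrays was 42.6%. The number of these channel and connexin genes above background was 46, 32, 43 and 56 on controls 1 to 4 and 60, 53, 70 and 55 on mutants 1 to 4. Control 2, which had the highest limit, had the fewest, and mutant 3, which had the lowest limit, had the most. The same counts over all genes ran from 9657 on control 2 to 13705 on mutant 3. For 17 of the genes all 4 mutants but not all 4 controls were above background, and for 1 gene, Kcnc2, the reverse held. The same split over all genes is not given, so these counts are no result about the channel genes. Over all genes every mutant array had more genes above background (12671 to 13705) than any control array (9657 to 12068), and the part of the background limits in these counts was not tested. Without controls 2 and 3, 34 of the 110 genes were above background throughout.

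**Figure D1:**
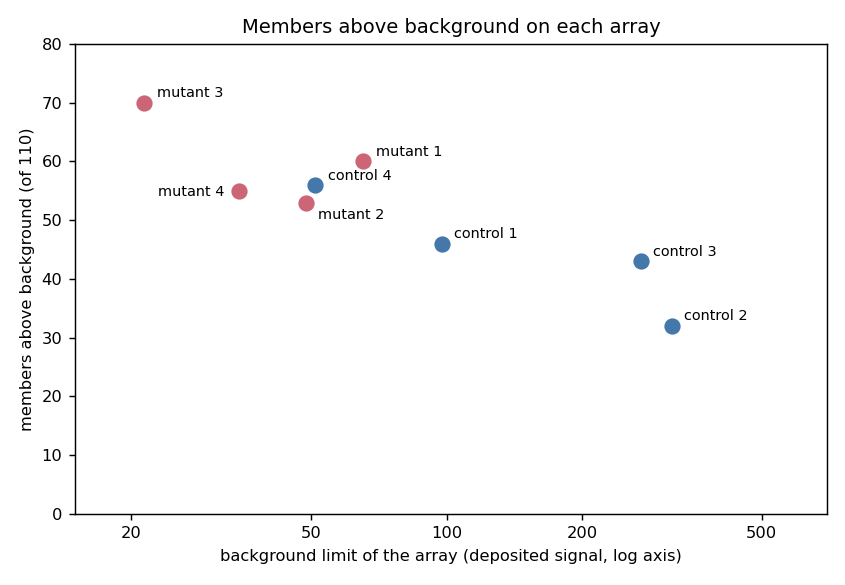
Number of the 110 channel and connexin genes above background (vertical axis) against the background limit of each array in signal units (horizontal log axis). Blue points are the 4 control and red points the 4 mutant arrays. The count was 70 on mutant 3, with a limit of 21.4, and 32 on control 2, with a limit of 316. It did not fall steadily between them.

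By family, the genes above background on all 8 arrays were spread thinly. Among connexins they were Gja1 and Gjc1, 2 of 4. Among calcium channel genes they were the pore subunits Cacna1c and Cacna1d, 2 of 9, and the alpha2-delta subunits Cacna2d1 and Cacna2d2, 2 of 4, but 0 of 3 beta and 0 of 8 gamma subunits. Among sodium channel genes they were the beta subunits Scn2b and Scn4b, 2 of 3, and of the pore subunits only Scn7a, 1 of 8. Among potassium channel genes they were Kcna4, Kcna5, Kcnd3 and Kcnq5, 4 of 22 voltage-gated pores, Kcnj3, Kcnj5, Kcnj11 and Kcnj14, 4 of 15 inward rectifiers, Kcnk2, 1 of 12 tandem pore-domain channels, and Kcnf1, 1 of 9 electrically silent subunits. None of 4 KCNE accessory subunits, 7 Kcnn, Kcnt and Kcnu channels and 2 Hcn genes was among them. At the edge of this rule, Kcna5 exceeded the limit 1.01-fold on its least favourable array, control 3, and Cacna1a missed it on control 2 with a signal at 0.999 of the limit.

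**Figure D2:**
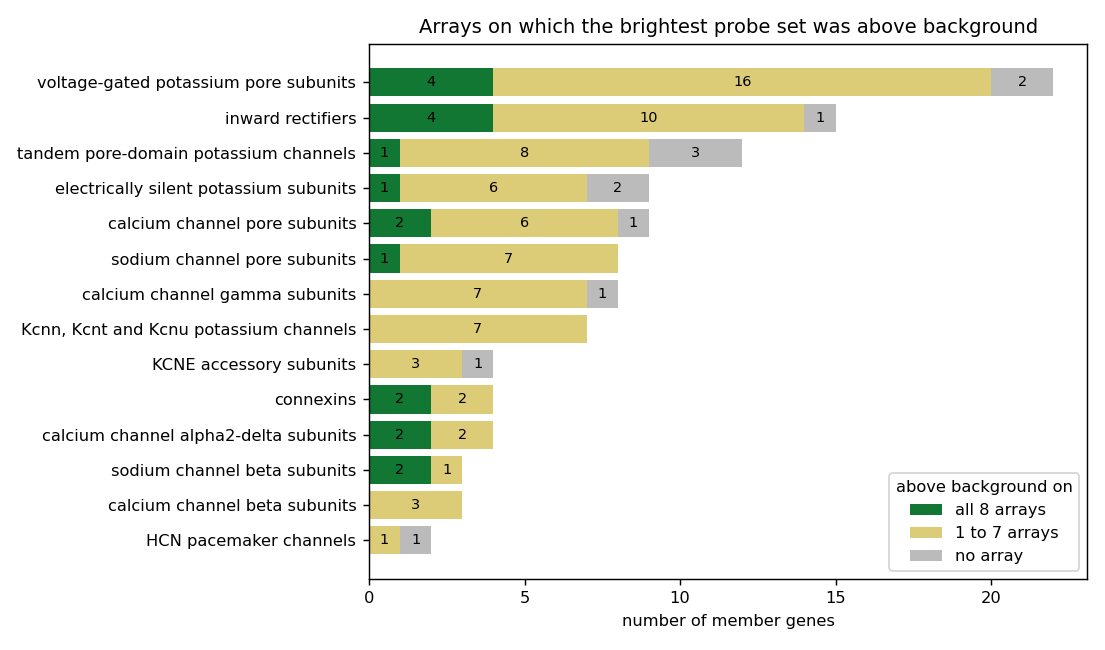
Member genes per family, split by the number of arrays on which the brightest probe set was above background: all 8 (green), 1 to 7 (yellow) or none (grey). The green segments add up to 19 of 110 genes, and 5 families have none.

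Changes between groups are given only for the 19 genes above background on all 8 arrays, on the log2(signal + 16) scale, which understates the change of dim genes. Adjusted p values are Benjamini-Hochberg values from limma over all 27022 probe sets tested. No channel or connexin gene passed the adjusted threshold of 0.05, against 7 probe sets higher in the mutants (0.0259%) and 5 lower (0.0185%) among all tested. Among the 7755 genes above background on all 8 arrays those shares were 0.0645% and 0.0387%. At an unadjusted p under 0.05, 4 of the 19 were higher in the mutants (21.1%) and 0 were lower. The same limit was met by 7.31% of all probe sets in the higher and 5.33% in the lower direction, and by 6.15% and 5.73% of the 7755 genes above background on all 8 arrays. With arrays as the authors scaled them, 5.69% of all probe sets were higher and 14.6% lower, and the same 4 channel genes met the limit. These 4 were Kcnj3, Kcna5, Kcna4 and Cacna2d2. Groups did not overlap for 2 of the 19, Kcnj3 and Cacna2d2, both higher in the mutants (10.5%), against 4.44% higher and 3.19% lower over all probe sets and 4.87% and 3.78% over the 7755 genes. The median change of the 19 was 0.05, with 12 positive and 7 negative, and the median of the 7755 genes was -0.002.

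**Figure D3:**
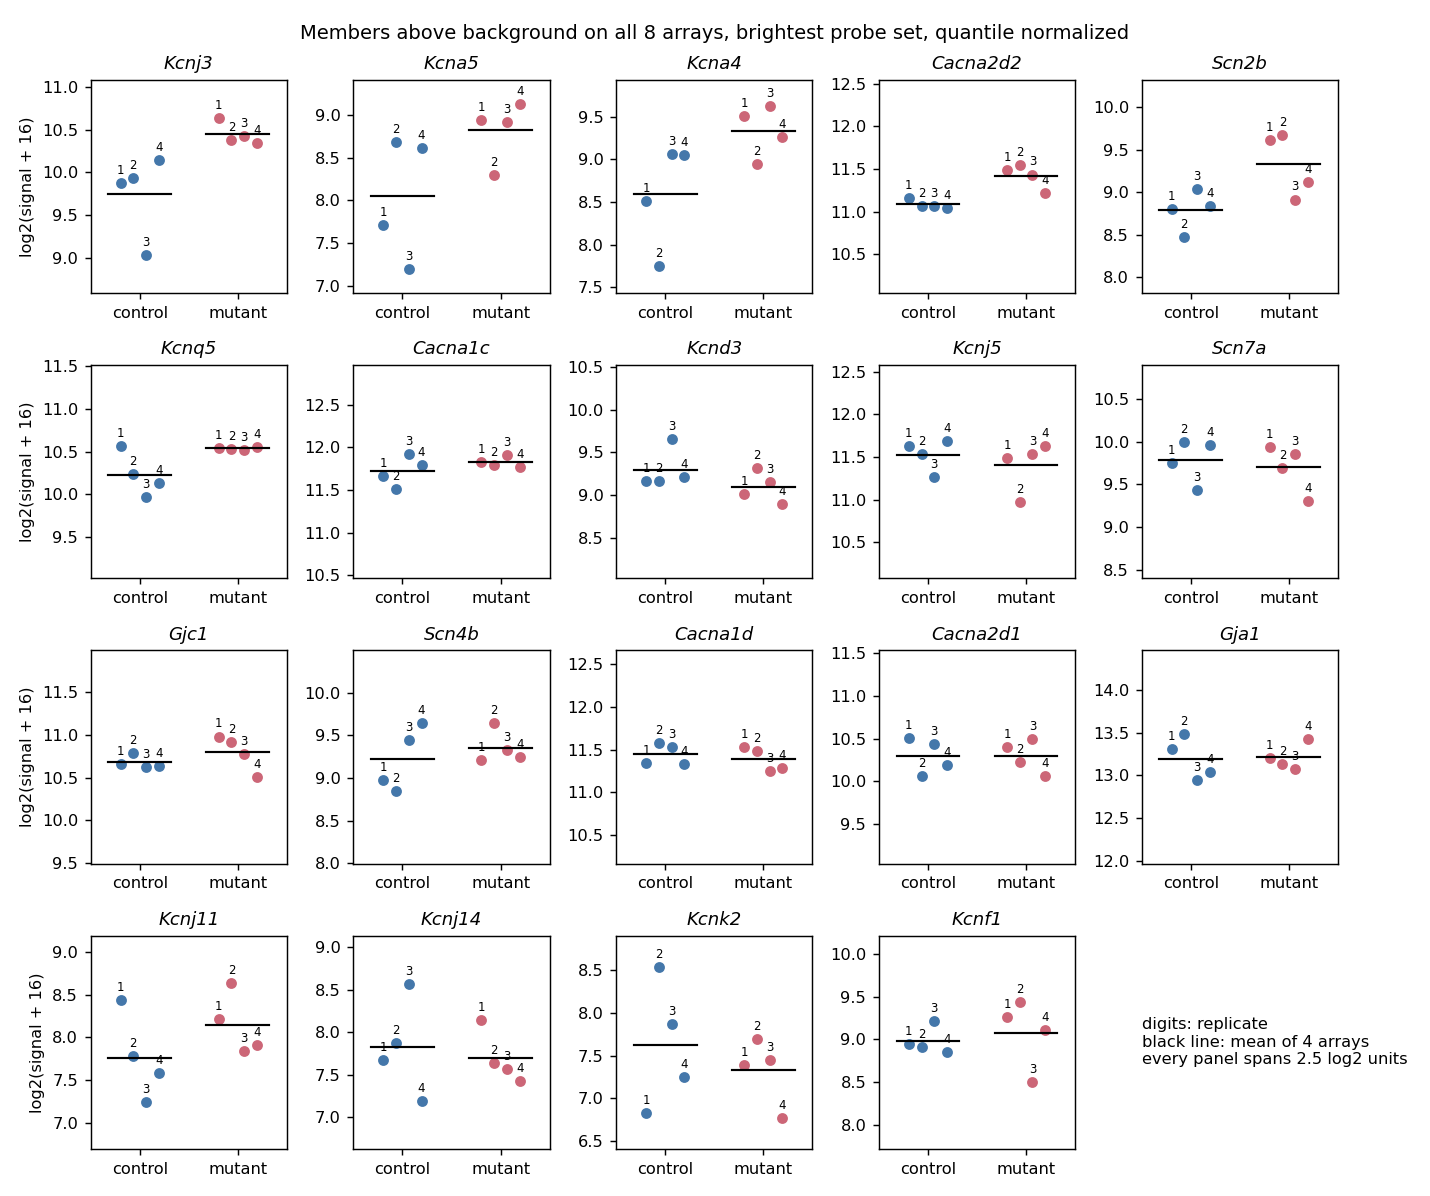
Log2(signal + 16) values of the 19 genes above background on all 8 arrays, by group. Points are arrays (digits give the replicate), black lines are means of 4 arrays, and every panel spans the same log2 range. Only in the panels of Kcnj3 and Cacna2d2 do all mutant points lie above all control points.

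Kcnj3 encodes Kir3.1, a subunit of the acetylcholine-activated potassium channel that slows the atria and nodes under vagal input. Its log2 values were 9.88, 9.93, 9.03 and 10.15 in controls 1 to 4, against 10.64, 10.38, 10.43 and 10.35 in mutants 1 to 4. All mutants lay above all controls, with control 3 well below the other controls. The log2 change was 0.57 (SE 0.16, 95% interval 0.24 to 0.90, unadjusted p = 0.0020, adjusted p = 0.225), a 1.49-fold difference, and it did not pass. Without control 1 or without control 4 it passed (0.89, adjusted p = 0.0250, and 0.88, adjusted p = 0.0267), so that control arrays decide this call. In those fits 1680 and 1662 of all probe sets passed, against 12 as reported. With the Kcnj3 probe sets averaged, apart from any among the dimmest 40% of all probe sets, the change was 0.17. Another Kcnj3 probe set, dimmer yet detected on all 8 arrays, gave -0.25 (SE 0.26, adjusted p = 0.705). The direction thus depended on the probe set. Kcnj5, which encodes the partner subunit Kir3.4, had values of 11.63, 11.53, 11.27 and 11.68 in the controls, against 11.49, 10.97, 11.53 and 11.63 in the mutants. Mutant 2 lay below every control, and the other 3 mutants lay within the controls (-0.10, SE 0.13, interval -0.37 to 0.16, adjusted p = 0.762). With arrays centred on their medians, Kcnj5 lay 0.64 above the median change of all probe sets, so its sign is not settled.

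The promoters of these 2 partner genes and of Gja1, from 250 bases before to 50 after the start of transcription (RefSeq, GRCm38.p6), are shown because the deleted gene encodes a factor that binds GATA motifs. Capitals mark a match on either strand to any of 4 forms of the GATA motif. These forms are spelled AGATAA and, with other outer bases, AGATAG, and further the form TGATAA as well as the form TGATAG.
Kcnj3 (chr2:55435720-55436019, plus strand): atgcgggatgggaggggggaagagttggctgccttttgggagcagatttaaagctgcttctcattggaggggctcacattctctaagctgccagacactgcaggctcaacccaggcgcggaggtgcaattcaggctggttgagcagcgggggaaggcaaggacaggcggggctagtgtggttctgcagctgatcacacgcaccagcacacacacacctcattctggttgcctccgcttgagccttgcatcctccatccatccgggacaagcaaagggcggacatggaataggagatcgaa
Kcnj5 (chr9:32344295-32344594, minus strand): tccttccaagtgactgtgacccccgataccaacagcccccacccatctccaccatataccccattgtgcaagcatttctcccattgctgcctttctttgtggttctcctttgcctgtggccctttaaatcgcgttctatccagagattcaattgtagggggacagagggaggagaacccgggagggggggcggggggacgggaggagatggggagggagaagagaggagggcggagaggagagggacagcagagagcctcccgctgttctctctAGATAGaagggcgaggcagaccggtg
Gja1 (chr10:56377050-56377349, plus strand): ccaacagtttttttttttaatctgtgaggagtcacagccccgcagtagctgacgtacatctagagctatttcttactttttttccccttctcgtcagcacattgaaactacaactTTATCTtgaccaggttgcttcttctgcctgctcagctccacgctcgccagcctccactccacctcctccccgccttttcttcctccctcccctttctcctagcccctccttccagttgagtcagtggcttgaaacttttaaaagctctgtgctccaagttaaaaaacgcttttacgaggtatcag
The windows of Kcnj5 and Gja1 hold 1 match each and that of Kcnj3 holds 0. Of all 32851 promoter windows of this length in the table, 29.8% hold such a match, and so do 7 of the 23 windows of the 16 of these 19 genes that the table lists. A match describes letters only, and no binding was measured here.

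Kcna5 and Kcna4 encode the potassium channels Kv1.5, which carries the ultrarapid outward current of atrial muscle, and Kv1.4, which carries a slowly recovering transient outward current. Kcna5 read 7.71, 8.68, 7.20 and 8.62 in controls 1 to 4, against 8.94, 8.30, 8.92 and 9.13 in mutants 1 to 4, on the log2 scale. The controls fell into a low pair, 1 and 3, and a high pair, 2 and 4, and 3 of 4 mutants lay above every control. The log2 change was 0.90 (SE 0.28, interval 0.32 to 1.48, unadjusted p = 0.0045, adjusted p = 0.249), and this gene has 1 probe set. Kcna4 had values of 8.51, 7.75, 9.06 and 9.05 in the controls, against 9.50, 8.95, 9.62 and 9.26 in the mutants. Again 3 of 4 mutants lay above every control (0.74, SE 0.23, interval 0.26 to 1.22, unadjusted p = 0.0049, adjusted p = 0.252). The second Kcna4 probe set, above background on 7 arrays, had the opposite sign (-0.53, SE 0.34, adjusted p = 0.525), and the average of both gave 0.10. The direction for Kcna4 thus depended on the probe set.

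Cacna2d2 encodes an alpha2-delta subunit, an extracellular protein that raises the number of calcium channels at the surface. Its log2 values were 11.16, 11.07, 11.06 and 11.04 in the controls, against 11.49, 11.55, 11.43 and 11.22 in the mutants. The controls were tight and all mutants lay above them, mutant 4 by the least. The log2 change was 0.28 (SE 0.10, interval 0.06 to 0.49, unadjusted p = 0.0142, adjusted p = 0.313), or 1.21-fold. Its 2 other probe sets were above background on 5 and on 0 arrays. The related subunit Cacna2d1 showed no such separation on its brightest probe set, with 10.51, 10.06, 10.44 and 10.19 in the controls, against 10.41, 10.22, 10.49 and 10.06 in the mutants (-0.06, SE 0.15, interval -0.37 to 0.26, adjusted p = 0.898). The second Cacna2d1 probe set detected throughout gave 0.09 (SE 0.26). A dimmer one, above background on 7 arrays, gave -0.33 (SE 0.31, adjusted p = 0.677). Another, above background on 1 control and 4 mutants, gave 1.08 (SE 0.32, adjusted p = 0.245). No direction is given for this gene.

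Markers of cell types moved between the groups as well. The summed signal of the 14 cardiomyocyte markers was 141127 to 148354 in the controls and 151916 to 156658 in the mutants, without overlap, and 13 of the 14 had positive changes with a median of 0.12. The sum of the 9 epicardial markers was 5490 to 6861 in the controls and 7927 to 11538 in the mutants, with 7 of 7 positive changes and a median of 0.64. The sum of the 10 cushion mesenchyme markers was 33191 to 34100.5 in the controls and 22806 to 29643 in the mutants, with 7 of 10 negative changes, and that of the 10 endothelial markers was 10536 to 11522 against 9663 to 9999.7. Tek, the endothelial receptor whose promoter drives the Cre, fell past the adjusted threshold (-0.72, SE 0.07, adjusted p = 0.000172). It was the brightest of the 10 endothelial markers, with mean log2 values of 12.53 in the controls and 11.83 in the mutants, and so weighed most in their sum. Of the 6 detected endothelial markers, 4 had positive and 2 negative changes, and the median was 0.19, opposite in sign to the sum. The lower sum is thus no fall of the endothelial markers as a set. Erythroid sums were 37866 to 57654 against 38213 to 48354, smooth muscle sums 16412 to 18089 against 17727 to 19054, and foregut and liver sums 1215 to 2172 against 1380 to 3118, all overlapping. By sign, all 6 detected erythroid markers had negative changes (median -0.18) and all 4 detected smooth muscle markers positive ones (median 0.12). Among defining markers, Hba-a1, Cd14 and Foxd3 were above background on no array. Summed macrophage markers (359 to 765 against 454 to 800.1) and neuronal and crest markers (1045 to 1143 against 1114 to 1194) overlapped. The part of these shifts in the values of Kcnj3, Kcna5, Kcna4 and Cacna2d2 was not tested.

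The pores of the L-type calcium channels were read clearly in both groups. Cacna1c, which encodes Cav1.2, the main calcium entry route of heart muscle, had values of 11.66, 11.51, 11.92 and 11.80 in the controls, against 11.83, 11.79, 11.91 and 11.77 in the mutants. The mutants lay within the range of the controls (0.12, SE 0.08, interval -0.06 to 0.29, adjusted p = 0.571). A second Cacna1c probe set, also detected on all 8 arrays, gave 0.57 (SE 0.17, adjusted p = 0.245), and the mean over both gave 0.34, so the size for this gene depends on the probe set. Cacna1d, which encodes Cav1.3, the L-type channel of pacemaker cells, had values of 11.34, 11.58, 11.54 and 11.33 in the controls, against 11.54, 11.49, 11.25 and 11.28 in the mutants (-0.05, SE 0.10, interval -0.26 to 0.16, adjusted p = 0.857). Its probe set is of a type that can bind several transcripts. With arrays as the authors scaled them the value was 0.04, so no direction is given.

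Of the T-type calcium channels, which open at low voltage and serve embryonic and nodal muscle, only Cacna1h came near. Its deposited signals were 416, 214, 287 and 517 in controls 1 to 4, against 532, 652, 665 and 620.2 in mutants 1 to 4. All mutants lay above all controls, also after quantile normalization, though narrowly, with control 4 at 9.07 and mutant 1 at 9.15 on the log2 scale. Control 2 was its only array under the background limit. Its 2 lowest signals were on controls 2 and 3, which had raised background, and no size of change is given. Cacna1g was on no array, with 12.8, 71.9, 60.1 and 8.10 in the controls, against 9.94, 46.9, 3.16 and 2.34 in the mutants, where the 2 noisy controls read highest. Cacnb2, the beta subunit of the cardiac L-type channel, had 151, 59.7, 152 and 126 in the controls, against 86.5, 156, 150.05 and 143 in the mutants, above background on all arrays but controls 2 and 3.

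Sodium channel genes were represented mainly by accessory subunits. Scn2b, a beta subunit that acts also as an adhesion molecule, had values of 8.80, 8.47, 9.03 and 8.84 in the controls, against 9.61, 9.67, 8.91 and 9.11 in the mutants. Mutants 1, 2 and 4 lay above every control, mutants 1 and 2 by the most, while mutant 3 lay within the controls (0.38, SE 0.22, interval -0.07 to 0.84, adjusted p = 0.467). A second Scn2b probe set read on all 8 arrays gave -0.002 (SE 0.21). Scn4b, a subunit tied to resurgent sodium current, had values of 8.97, 8.85, 9.45 and 9.64 in the controls, against 9.21, 9.64, 9.33 and 9.25 in the mutants (0.10, SE 0.19, interval -0.29 to 0.49, adjusted p = 0.849). Scn7a encodes a sodium-sensing relative of the voltage-gated pores. It had values of 9.75, 9.99, 9.43 and 9.96 in the controls, against 9.94, 9.69, 9.85 and 9.31 in the mutants (-0.13, SE 0.18, interval -0.52 to 0.26, adjusted p = 0.786), and a second probe set detected throughout gave 0.32 (SE 0.30). For none of these 3 did the interval exclude 0.

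The connexin of working muscle, Gja1 or connexin 43, read on the log2 scale 13.30, 13.49, 12.94 and 13.03 in the controls, against 13.21, 13.13, 13.07 and 13.43 in the mutants. The mutant values lay within those of the controls. The change was 0.02 (SE 0.11, interval -0.22 to 0.27, adjusted p = 0.947), and 4 other Gja1 probe sets above background on all arrays gave 0.04, 0.10, 0.01 and 0.26, with adjusted p from 0.654 to 0.980. Gjc1 encodes connexin 45, the gap junction protein of the early heart and of slow conduction in the canal. It had values of 10.66, 10.79, 10.62 and 10.64 in the controls, against 10.98, 10.92, 10.78 and 10.50 in the mutants. Mutants 1 and 2 lay above every control and mutant 4 below every control (0.07, SE 0.13, interval -0.20 to 0.35, adjusted p = 0.835). Its other probe set gave -0.08 (SE 0.11), so no direction is given. With arrays centred on their medians Gja1 and Gjc1 lay 0.71 and 0.45 above the median change of all probe sets.

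Gja5 and Gjb2 were not read reliably. Gja5, connexin 40 of atria and fast conduction tissue, had deposited signals of 8.37, 21.6, 21.9 and 57.7 in the controls, against 3.38, 22.4, 46.5 and 51.2 in the mutants, and was above background on 1 control and 2 mutant arrays. Gjb2, connexin 26 of skin and inner ear, had 53.1, 113, 47.4 and 276 in the controls, against 166, 61.7, 20.8 and 3.94 in the mutants, above background again on 1 and 2 arrays.

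The remaining potassium channel genes above background on all arrays did not separate the groups. Kcnq5 belongs to the family of slowly opening M-type channels. It had values of 10.56, 10.24, 9.97 and 10.14 in the controls, against 10.55, 10.53, 10.53 and 10.56 in the mutants. The mutants were nearly identical and control 1 lay at their level (0.21, SE 0.13, interval -0.05 to 0.48, adjusted p = 0.492). Kcnd3 encodes Kv4.3, a pore of the fast transient outward current, and had values of 9.17, 9.16, 9.65 and 9.21 in the controls, against 9.01, 9.31, 9.16 and 8.89 in the mutants. Control 3 was the highest array (-0.18, SE 0.18, interval -0.55 to 0.19, adjusted p = 0.694). Kcnj11 encodes Kir6.2, the pore of ATP-sensitive potassium channels, and had values of 8.44, 7.78, 7.24 and 7.59 in the controls, against 8.22, 8.64, 7.84 and 7.91 in the mutants. The groups overlapped, and the unweighted means differed by 0.39, with SDs of 0.50 in the controls and 0.37 in the mutants. The change weighted by array was 0.05 (SE 0.30, interval -0.57 to 0.68, adjusted p = 0.961), and as the authors scaled the arrays it was -0.39. Kcnj14, Kcnk2 (the stretch-sensitive channel TREK-1) and Kcnf1, a silent subunit, had changes of -0.03, -0.02 and 0.001 with SEs of 0.30, 0.36 and 0.24. Their intervals reached from -0.66 to 0.60, from -0.77 to 0.74 and from -0.50 to 0.50, so moderate differences in these dim genes were not detectable.

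**Figure D4:**
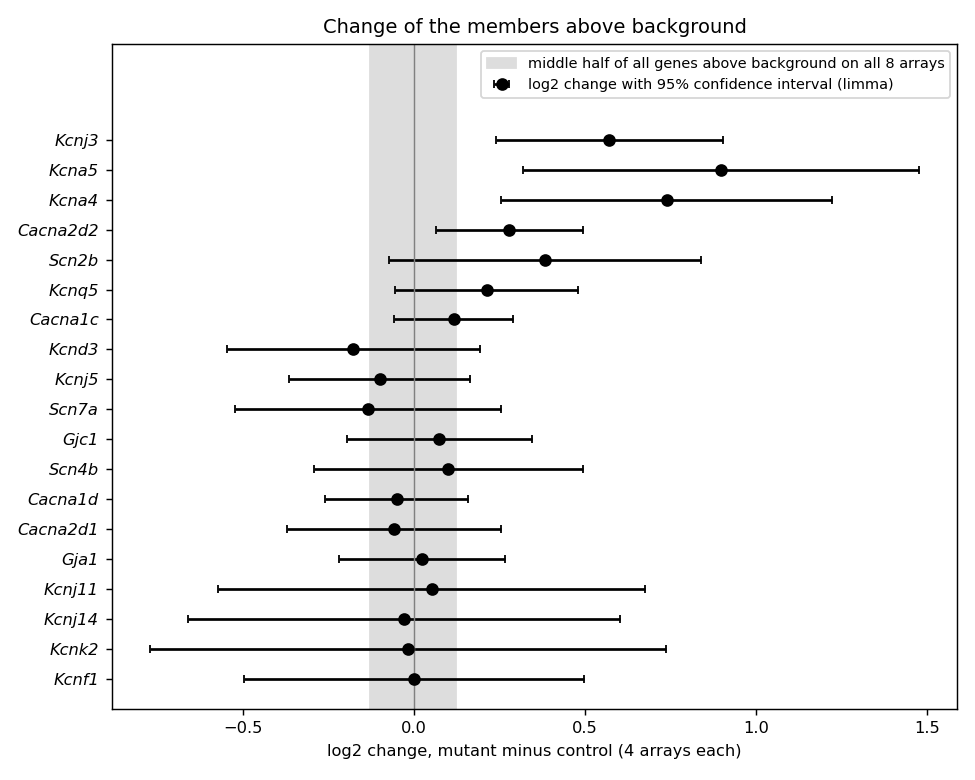
Log2 change, mutant minus control, of the 19 genes with 95% confidence intervals from limma, ordered by unadjusted p. The grey band holds the middle 50% of changes of all 7755 genes above background on all 8 arrays, from -0.13 to 0.12. The intervals of Kcnj3, Kcna5, Kcna4 and Cacna2d2 lie above 0, and none of the 4 passed the adjusted threshold.

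Several potassium channel genes known from cardiac repolarisation fell short of the background limit on 1 or more arrays, so no change is given for them. Kcnh2, the pore of the rapid delayed rectifier, had deposited signals of 289, 263, 322 and 191 in the controls, against 244, 286, 186 and 163 in the mutants, and missed the limit on control 2 only. Kcne1, an accessory subunit of the slow delayed rectifier, had 139.6, 106, 172 and 151 in the controls, against 123, 129, 205 and 143 in the mutants, missing it on controls 2 and 3. Its pore Kcnq1 had 69.3, 48.7, 50.5 and 29.1 in the controls, against 66.3, 34.96, 85.6 and 61.5 in the mutants, above background on 0 controls and 3 mutants. For these 3 the ranges of the groups overlapped. Kcnd2, the Kv4.2 pore, had 128, 214, 78.6 and 108 in the controls, against 124, 71.2, 63.5 and 37.3 in the mutants, with the highest value on the noisiest control. Kcnk3, the acid-sensitive background channel TASK-1, had 117, 63.1, 72.1 and 223 in the controls, against 199, 307, 226 and 373 in the mutants. It exceeded background on controls 1 and 4 and on all mutants, and control 4 lay within the mutant range. Kcnj2, the main pore of the resting potassium current in working muscle, had 21.3, 55.6, 69.2 and 3.22 in the controls, against 14.2, 51.3, 41.6 and 39.95 in the mutants, above background on 3 mutants alone. Kcnj8, the vascular ATP-sensitive pore Kir6.1, had 20.2, 186, 116 and 20.9 in the controls, against 39.8, 36.4, 5.001 and 45.6 in the mutants, above background on 1 mutant. Of the pacemaker channel genes measured, Hcn3 was above background on 1 control and Hcn2 on no array.

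Partner genes were read from 3 lists. Of 19 measured genes of calcium handling, 13 were above background on all arrays, 9 with positive and 4 with negative changes, and the median was 0.16. None passed the adjusted threshold, while 6 of the 13 were higher and 0 lower at an unadjusted p under 0.05, against 6.15% higher and 5.73% lower over the 7755 detected genes. Fxyd1 (phospholemman, a regulator of the sodium pump) stood at 9.48 ± 0.23 in the controls and 10.13 ± 0.14 in the mutants (SD, n = 4 each), a log2 change of 0.54 (SE 0.14, limma adjusted p = 0.215). The calcium store proteins Casq2 and Trdn had changes of 0.69 (SE 0.20) and 0.29 (SE 0.08), and the mutants lay above all controls for these 3. Camk2d, the calcium-dependent kinase of heart muscle, had 0.41 (SE 0.12), with overlap, and the release channel Ryr2 had 0.16 (SE 0.06) on its brightest probe set, without overlap. Adjusted p for these 4 ran from 0.236 to 0.310. Of 27 measured accessory and scaffold genes, 11 were above background on all arrays, 4 with positive and 7 with negative changes (median -0.05), 0 passed, and at an unadjusted p under 0.05 there were 0 higher and 1 lower, Ranbp2 (-0.25). The junction scaffold Tjp1, which binds Gja1, was among those with little change (-0.05, SE 0.05). Of 13 measured further connexins and pannexins, Gja3, Panx1 and Panx2 were above background on all arrays, with 0.08, 0.19 and 0.48, and 0 passed. Panx2 (SE 0.19, adjusted p = 0.334) was 1 of the 6 partner genes with the smallest p.

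**Figure D5:**
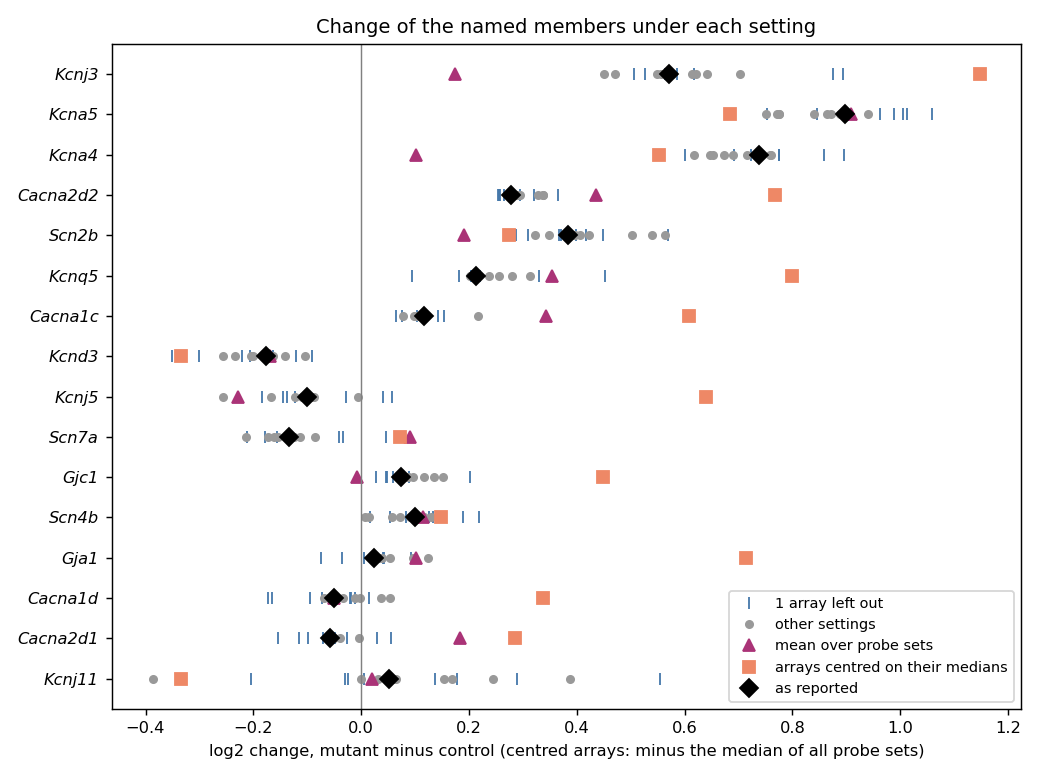
Log2 change of the 16 channel and connexin genes with values given on every array, as reported (black) and under 19 other settings. Blue ticks leave out 1 array, and triangles average the probe sets of a gene, apart from any among the dimmest 40% of all probe sets. Squares give arrays centred on their medians minus the median change of all probe sets. Kcnj3 and Kcna4 shrink to 0.17 and 0.10 when probe sets are averaged. Kcna5 stays between 0.68 and 1.06, but it has 1 probe set, so averaging does not test it.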

How the data were processed

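The deposited values were linear probe set intensities made by the authors with MAS5, per the submitters' processing notes, and scaled to a mean of 715 on every array. Their version and detection calls are not given in the sources used here. Per the labels, 50 ng of RNA was amplified by an isothermal protocol and hybridised to 1 array per pool. The series text speaks of 2 noisy controls left out without naming them, and all 4 deposited controls were kept. The number of arrays limits the precision.

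Signals were taken as log2(signal + 16) and quantile normalized, since 2% trimmed means differed 1.12-fold between arrays. Array controls were dropped, as was the dimmest 40% of probe sets by mean, which left 27022. Of 45101 probe sets, 34958 had 1 gene symbol in the platform annotation, 932 several and 9211 none. All 110 members matched RefSeq (GRCm38.p6) by Entrez ID, which served for names. Groups were compared with limma 3.58.1 in R 4.3.3 (array weights, eBayes with trend and robust, two-sided), with weighted changes and unweighted means. The model was tested on simulated data: with 200 of 27022 probe sets changed, it recovered 3% at a log2 change of 0.5, 18% at 1 and 53.5% at 2. False calls numbered 0, 0 and 6. The simulated noise took the observed spread within groups and scaled it again by the array weights. It was thus larger than in the data, and the shares recovered may be too low.

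The members and lists were chosen with earlier results of these data known. Per-array values are given for the 12 members above background on all 8 arrays with the smallest p and for a list of cardiac channels and connexins written with the design; from the partner lists, the 6 such genes with the smallest p are named, and others are named where a count or probe set called for it. The members' rule used no group difference. Alternatives covered the offset, normalization, filter, array weights, controls 2 and 3, the background limit, probe sets, a replicate block and each array left out. Same-numbered arrays correlated in their deviations from group means by -0.11, 0.006, -0.13 and 0.17. These values gave no clear sign of pairing by number, but they cannot exclude it, and the labels do not say. The samples were treated as unpaired.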

Additional observations from a re-analysis of the deposited data

Results flagged for a closer look

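Of 32 groups of 4 arrays looked at for the 16 channel and connexin genes with values on every array, 1 held an array far from the others, and chance alone sets apart about 1 group in 20. It was Kcnd3 in control 3, at 9.65 on the log2 scale against 9.16 to 9.21 in the other 3 controls. The gap was 0.909 of the range of the group. Control 3 is 1 of the 2 arrays with raised background.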

How the results depend on the processing

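Kcnj3, Kcna5, Kcna4, Cacna2d2, Scn2b, Kcnq5, Cacna1c, Scn4b and Kcnd3 kept their direction under all 19 settings run for single genes. All of these settings but the averaging used the same brightest probe set, so they do not test the direction across probe sets. Other probe sets gave -0.25 and 0.17 for Kcnj3, -0.53 for Kcna4 and -0.002 for Scn2b. Those tested for Cacna2d2, Kcnq5 and Cacna1c were positive. The probe sets past the adjusted threshold, 12 as reported, numbered 34 with an offset of 64, 63 as the authors scaled the arrays, 26 with no filter, and 2 without controls 2 and 3, both without array weights and with them (the latter chosen after seeing the data). With 1 array left out they numbered 5 to 1680, with 1680 without control 1, 1662 without control 4, 109 without control 3, 54 without mutant 3 and 5 without mutant 1. With arrays centred on their medians, where the median change of all probe sets was 1.13, there were 19154, split 17322 higher and 1832 lower; 17 of the 19 channel and connexin genes then passed, adjusted and unadjusted, 4 had no overlap, and their median lay 0.34 above that of all. These calls hold the shift of all probe sets. Channel and connexin genes past the adjusted threshold numbered 0 to 1 with 1 array left out, the 1 being Kcnj3. Those past the unadjusted limit numbered 4 to 5, while the share of all probe sets higher at that limit ran from 4.89% to 17.3% (17.3% without control 1, 16.6% without control 4). Those without overlap numbered 2 to 5, and the median change ran from 0.020 to 0.14. Groups separate more easily with 1 array fewer, and the share of all probe sets without overlap is not given for these settings. The median was 0.15 without controls 2 and 3 and array weights, where 5 genes met the unadjusted limit, and 4 did with array weights. With probe sets of a gene averaged, 2 genes (Kcna5 and Cacna1c) met the unadjusted limit and 0 had no overlap. With the highest bacterial control as the limit, 14 genes were above background and 2 met the unadjusted limit. Kcna5 and Kcna4 were not among the 14, with Kcna5 under that limit on controls 1 and 3 and Kcna4 on control 2. With controls 2 and 3 set aside for detection, 34 genes were above background and 8 met the unadjusted limit. The 15 genes added were under the background limit on control 2, control 3 or both and above it on every mutant. The fit kept those controls, and the share over all genes is not given. The count of 8 is thus no result about these genes.

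Signs turned for genes near 0. As the authors scaled the arrays, Cacna1d was at 0.037 and Kcnj11 at -0.39. With median-centred arrays, relative to the median, Kcnj5 was at 0.64, Scn7a at 0.072, Cacna1d at 0.34, Cacna2d1 at 0.28 and Kcnj11 at -0.34. Cacna1d was at 0.053 without controls 2 and 3 and array weights. With averaged probe sets Scn7a was at 0.091, Gjc1 at -0.0075 and Cacna2d1 at 0.18. With 1 array left out the ranges were -0.18 to 0.057 for Kcnj5, -0.21 to 0.047 for Scn7a, -0.075 to 0.10 for Gja1, -0.17 to 0.014 for Cacna1d, -0.15 to 0.056 for Cacna2d1 and -0.20 to 0.55 for Kcnj11. The cause of these turns was not tested. With the replicate block, 60 probe sets passed (26 higher, 34 lower), 0 channel and connexin genes did and 5 met the unadjusted limit. Whether the numbers pair the samples is not known, and 0 of 4 controls correlated best with the mutant of its own number. Dim genes near the background limit carry the widest intervals.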

Other observations

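Kcne2, an accessory subunit of delayed rectifier channels, was chosen after its values were seen. Its deposited signals were 113, 99.9, 123 and 188 in controls 1 to 4 and 203, 248, 238 and 225 in mutants 1 to 4. These signals did not overlap, but after quantile normalization the groups did, with control 4 at 7.92 and mutant 1 at 7.88 on the log2 scale. Controls 2 and 3 were below their own background limits, and no size of change is given.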
